A study of Mus musculus with 8 samples.

Results

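The genes described here are the chemokines and chemokine receptors, taken as every gene whose symbol starts with Ccl, Cxcl, Ccr or Cxcr followed by a digit. They were 48 genes, 33 ligands and 15 receptors, out of 15095 genes measured, each with 1 probe among 21776 probes placed on the arrays. The study used the mouse T cell line CTL-EN, engineered to carry the beta common chain of the human GM-CSF receptor either as the wild type or with Ser585Gly, a serine changed to glycine. All cells were first kept for 12 h without factor in medium holding 0.5% serum (0 h), and the cells of the later time were then stimulated with GM-CSF, the human protein, at 50 ng/mL over another 12 h (12 h). The 4 RNAs were hybridised in pairs to 8 2-colour arrays. A first pair set Ser585Gly beside wild type at 0 h and another did so at 12 h. The remaining pairs set 12 h beside 0 h, one within wild-type cells and one within Ser585Gly cells. Each pair was run with the dyes both ways. In replicate 1 the Ser585Gly RNA, or the 12 h RNA of a time pair, carried Cy5, and in replicate 2 it carried Cy3. Every array ratio below is turned to Ser585Gly over wild type or to 12 h over 0 h.

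Separate cultures or extracts are not named in the labels, so p-values measure the spread between hybridisations only, which may be technical. Whether each population was a single clone or a pool is not stated in the labels, and a difference between the populations cannot be told apart from one that arose when the lines were made. No array held cells kept for the same time without GM-CSF, so the part of GM-CSF in a change over time cannot be told apart from that of the culture period. The introduced human chain has no probe here, so its level in the populations was not measured. A change in RNA per cell and a change in the share of cells that hold the RNA cannot be told apart in these bulk samples.

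Chemokines are small secreted proteins that attract leukocytes. Their receptors span the membrane and couple to inhibitory G proteins, which drive integrin activation, actin remodelling and directed migration. In T cells the set of receptors marks where a cell can go: Ccr7 serves entry to lymph nodes, whereas Ccr4 and Cxcr3 serve entry to inflamed tissue. GM-CSF signals through the beta common chain to JAK2 and STAT5 and to the RAS and PI3-kinase pathways, and the serine studied here is a phosphorylation site of the chain.

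Brightness depends on the probe and cannot establish cell identity. It is described here for 16 measured T cell markers. Among them 12 lay above the 75th percentile of brightness, with Cd3d, Cd3e, Cd3g and Thy1 at percentiles of 97.4, 98.2, 99.2 and 99.2, whereas Cd4 (1.21) and Gzmb (0.868) were not brighter than the 95th percentile of wells named empty. None of the 16 measured myeloid markers lay above the 75th percentile. Median foreground intensity ran from 631 to 946 in Cy5 and from 795 to 1105 in Cy3, and the number of arrays limits the precision. Replicate 1 of Ser585Gly against wild type at 0 h stood apart: 19 of the 48 chemokine and receptor probes read below −0.5 on the log2 scale, against 1 to 7 on the other arrays. Over all probes 19.7% read below −0.5 on that array, against 2.92% to 6.96% elsewhere. Among the 48 genes, the 0 h calls and the calls over time that pass or end without it are given with and without it. For the other listed genes the 0 h calls are given both ways. Their calls over time are given with it, and only as counts without it.

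Spots carried no names, and gene names rest on a print order recovered from the spots. Pairs of probes for the same gene were taken where either probe lay on the plate that held 37 of the 48 genes. Both probes had to read above 9 in mean log2 intensity at their recovered spots. Over these 14 pairs the log2 ratios correlated at 0.65 to 0.80 in the recovered order and −0.57 to 0.26 in the deposited order. This is a description over pairs that share arrays. The brightness limit was applied in the recovered order only, so the orders were not compared evenly. No pair was of a chemokine or receptor gene. The probes for Ccl21a, Ccl21b and Ccl21c target near-identical copies and are uncertain as separate genes. All 48 probes were brighter on average than the 95th percentile of empty wells, and 36 were so in all 16 channels. Their brightness lay between the 4.60 percentile (Cxcl14) and the 84.3 percentile (Ccr7), with a median of 42.6. Brightness depends on the probe and does not rank genes by expression.

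The differences between Ser585Gly and wild-type cells fell mostly on receptors. At 0 h, 5 of the 48 genes passed the threshold of an adjusted p under 0.05 (limma, Benjamini-Hochberg over all 21776 probes), 10.4% against 4.07% of all probes. Ccl11, Ccr7 and Ccr4 were higher in Ser585Gly cells, and Ccr2 and Ccr1l1 were lower. At 12 h, 5 genes passed, 10.4% against 1.72% of all probes: Ccl11, Ccr7 and Ccr4 were again higher, and Ccr2 and Cxcr5 were lower. Receptors made up 4 of the 5 at each time, or 4 of 15 receptors measured, and the ligand was Ccl11, 1 of 33. The median log2 ratio of the 48 genes was 0.01 at 0 h and −0.01 at 12 h, beside 0.00 and −0.01 over all probes. The 0 h comparison leans on the array that stood apart, and without it 3 genes passed at 0 h (Ccl11, Ccr7 and Ccr2, 6.25% against 1.49% of all probes) and 5 at 12 h (10.4% against 2.88%). With each dye swap averaged and counted as 1 replicate, the same 5 genes passed at 0 h, beside 1.33% of all probes, and Ccl11, Ccr7 and Ccr4 passed at 12 h, beside 0.716% (adjusted p = 0.0553 for Ccr2 and 0.126 for Cxcr5). With names in the deposited order of the table, 0 of the 48 passed at 0 h and 1 at 12 h.

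**Figure D1:**
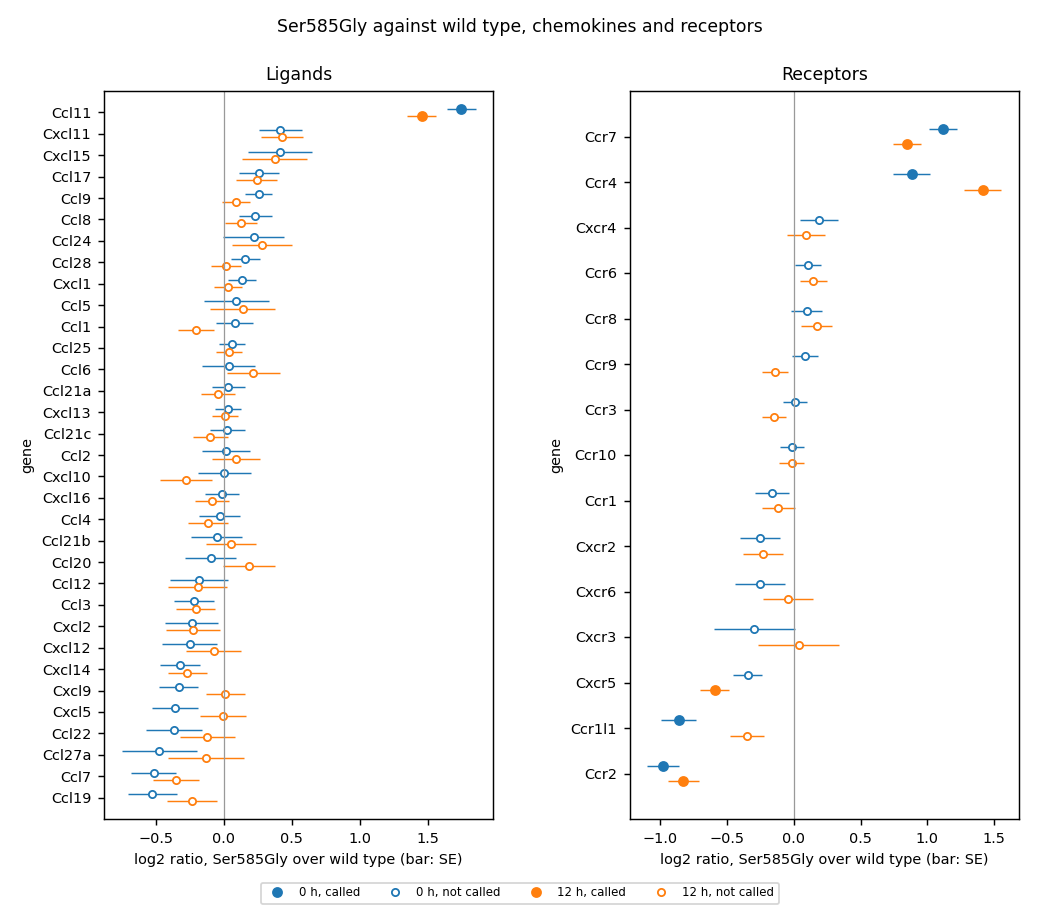
Log2 ratio of Ser585Gly over wild type for 33 ligands (left) and 15 receptors (right), at 0 h in blue and 12 h in orange. Points are limma estimates over 8 arrays, bars are SE and filled points passed an adjusted p under 0.05; Ccl11, Ccr7 and Ccr4 lie to the right at both times and Ccr2 to the left.

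The genes that moved between the populations sit in 2 clusters on the mouse genome and at sites of their own. In the order of GRCm38.p6, Ccr9, Cxcr6, Ccr1, Ccr1l1, Ccr3 and Ccr2 lie together on chromosome 9, and Ccl2, Ccl7, Ccl11, Ccl12, Ccl8 and Ccl1 follow each other on chromosome 11. In the receptor cluster the log2 ratios at 0 h were 0.08 for Ccr9, −0.25 for Cxcr6, −0.16 for Ccr1, −0.86 for Ccr1l1, 0.01 for Ccr3 and −0.98 for Ccr2, so a member that did not pass lay between the pair that fell. In the ligand cluster they were 0.01 for Ccl2, −0.52 for Ccl7, 1.74 for Ccl11, −0.18 for Ccl12, 0.23 for Ccl8 and 0.08 for Ccl1, and Ccl11 was the one member that passed. Promoter windows from RefSeq (GRCm38.p6, 250 bases before to 50 after the start) were held for 35 of the 48 genes, and for Ccr4, Ccr2, Ccr1l1, Cxcr3 and Cxcr4 among those that passed in any comparison. Those of the receptors that differed between the populations are shown 5′ to 3′ on the gene's strand, because one rose and the others fell, and capitals mark letters that match a searched motif. Ccr4 lies at chr9:114496495-114496794 on the minus strand, Ccr1l1 at chr9:123986666-123986965 on the minus strand and Ccr2 at chr9:124101933-124102232 on the plus strand.
Ccr4: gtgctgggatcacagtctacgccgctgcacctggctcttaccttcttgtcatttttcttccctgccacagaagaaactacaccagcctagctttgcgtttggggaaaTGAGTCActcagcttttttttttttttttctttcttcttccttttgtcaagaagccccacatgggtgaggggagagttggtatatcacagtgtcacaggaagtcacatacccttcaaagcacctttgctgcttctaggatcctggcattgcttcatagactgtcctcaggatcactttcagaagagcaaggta
Ccr1l1: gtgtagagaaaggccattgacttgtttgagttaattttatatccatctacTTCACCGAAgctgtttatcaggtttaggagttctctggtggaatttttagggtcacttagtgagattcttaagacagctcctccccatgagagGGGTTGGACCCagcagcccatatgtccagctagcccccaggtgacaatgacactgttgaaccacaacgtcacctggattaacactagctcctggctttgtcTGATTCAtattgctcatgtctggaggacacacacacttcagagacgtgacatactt
Ccr2: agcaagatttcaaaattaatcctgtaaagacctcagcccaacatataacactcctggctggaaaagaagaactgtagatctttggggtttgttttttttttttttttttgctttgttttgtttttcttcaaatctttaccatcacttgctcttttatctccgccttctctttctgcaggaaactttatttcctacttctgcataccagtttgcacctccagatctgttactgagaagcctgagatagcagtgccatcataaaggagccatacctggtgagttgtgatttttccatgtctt

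The motifs were searched on both strands as TTCNNNGAA for STAT factors, TGANTCA for AP-1 and, for NF-kB, GGG and CC with 5 free bases between them. The Ccr4 window held an AP-1 match at position −143 from the start. The Ccr1l1 window held a STAT match at −200, 2 overlapping NF-kB matches at −107 and −106 and an AP-1 match at −6, and the Ccr2 window held no match. Of all 32851 windows, 8.30% held the STAT letters, 7.81% the AP-1 letters and 50.8% the NF-kB letters. Of the 39 windows of chemokine and receptor genes, 4, 8 and 23 did. A match is a run of letters and not a measured site.

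Ccl11, or eotaxin, attracts eosinophils and other cells through Ccr3. Its log2 ratio of Ser585Gly over wild type was 2.03 and 1.47 on the 0 h arrays and 1.45 and 1.44 on the 12 h arrays, so all 4 lay above 1. The fitted ratio was 1.74 ± 0.11 (SE; 3.35-fold, adjusted p = 0.000316) at 0 h and 1.45 ± 0.11 (2.74-fold, adjusted p = 0.000594) at 12 h. In normalised log2 intensity, the 4 channels of wild-type RNA at 0 h read 9.17, 8.93, 8.67 and 9.11, and those at 12 h read 9.11, 9.23, 8.72 and 8.90. The channels of Ser585Gly RNA read 10.70, 10.41, 10.64 and 10.57 at 0 h and 10.18, 10.43, 10.55 and 10.08 at 12 h. No Ser585Gly channel overlapped a wild-type channel. Both calls held under the 18 alternatives that keep the recovered order of names, the removal of any single array included. Without the array that stood apart the 0 h ratio was 1.62 (adjusted p = 0.00188). Ccr3, its receptor, had log2 ratios of 0.01 at 0 h (95% interval −0.20 to 0.22) and −0.15 at 12 h (−0.36 to 0.06).

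Ccr7 binds Ccl19 and Ccl21 and guides T cells into lymph nodes. Its log2 ratios of Ser585Gly over wild type were 1.24 and 0.97 on the 0 h arrays and 0.97 and 0.74 on the 12 h arrays, positive on all 4. The fitted ratios were 1.12 ± 0.10 at 0 h (2.17-fold, adjusted p = 0.00152) and 0.85 ± 0.10 at 12 h (1.80-fold, adjusted p = 0.00620). By channel, wild-type RNA read 10.82, 11.42, 10.86 and 10.97 at 0 h and 11.09, 10.94, 10.09 and 11.38 at 12 h. Ser585Gly RNA read 12.10, 12.23, 11.79 and 11.17 at 0 h and 11.05, 11.11, 11.83 and 11.66 at 12 h, so the channels of different arrays overlapped while each array's own pair did not. Without the array that stood apart the 0 h ratio was 1.12 (adjusted p = 0.0109), whereas the 12 h call ended without either 12 h array (adjusted p = 0.0960 and 0.107).

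Neither ligand family of Ccr7 passed. Ccl19 had log2 ratios of −0.53 ± 0.18 at 0 h (adjusted p = 0.140) and −0.24 at 12 h, with −1.04 and −0.24 on the 0 h arrays, of which the first is the array that stood apart. Without it the 0 h ratio was −0.17 (adjusted p = 0.596). Ccl21a, Ccl21b and Ccl21c had ratios of 0.03, −0.05 and 0.02 at 0 h and of −0.05, 0.05 and −0.10 at 12 h.

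Ccr4, the receptor for Ccl17 and Ccl22, marks type 2 helper, regulatory and skin-homing T cells. Its log2 ratios of Ser585Gly over wild type were 1.04 and 0.76 on the 0 h arrays and 1.45 and 1.35 on the 12 h arrays. The fitted ratios were 0.88 ± 0.14 at 0 h (1.84-fold, adjusted p = 0.0155) and 1.42 ± 0.14 at 12 h (2.67-fold, adjusted p = 0.00212). Ccr4 also rose over the 12 h with GM-CSF in Ser585Gly cells, by 0.92 and 0.51 on the arrays and 0.70 ± 0.14 in the fit (1.62-fold, adjusted p = 0.0164). In wild-type cells the arrays read −0.12 and 0.41 and the fit gave 0.17 ± 0.14 (adjusted p = 0.536). The difference between the responses was 0.53 ± 0.16 and did not pass (adjusted p = 0.563), so the rise is not shown to differ between the populations.

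By channel, Ccr4 read 8.09, 8.45, 8.36 and 8.35 in wild-type RNA at 0 h and 9.39, 8.84, 8.85 and 9.67 in Ser585Gly RNA at 0 h. At 12 h it read 9.32, 8.23, 9.06 and 8.87 in wild type and 10.52, 10.60, 10.67 and 9.35 in Ser585Gly. Ser585Gly channels lay above wild-type channels at each time, and those of Ser585Gly at 0 h and 12 h overlapped. The 0 h call ended without either 0 h array (adjusted p = 0.0817 without the one that stood apart, 0.0861 without the other). The rise in Ser585Gly cells ended without either of its own arrays (adjusted p = 0.217 and 0.0545), and the 12 h call ended without replicate 1 at 12 h (0.0531). The ligands did not pass: Ccl17 had ratios of 0.26 ± 0.15 at 0 h and 0.24 ± 0.15 at 12 h (adjusted p = 0.340 and 0.577), and Ccl22 had −0.37 ± 0.20 and −0.12 ± 0.20 (0.323 and 0.861). The 0 h ratio of Ccl22 was 0.08 without the array that stood apart (adjusted p = 0.777) and that of Ccl17 was 0.25 (0.585).

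**Figure D2:**
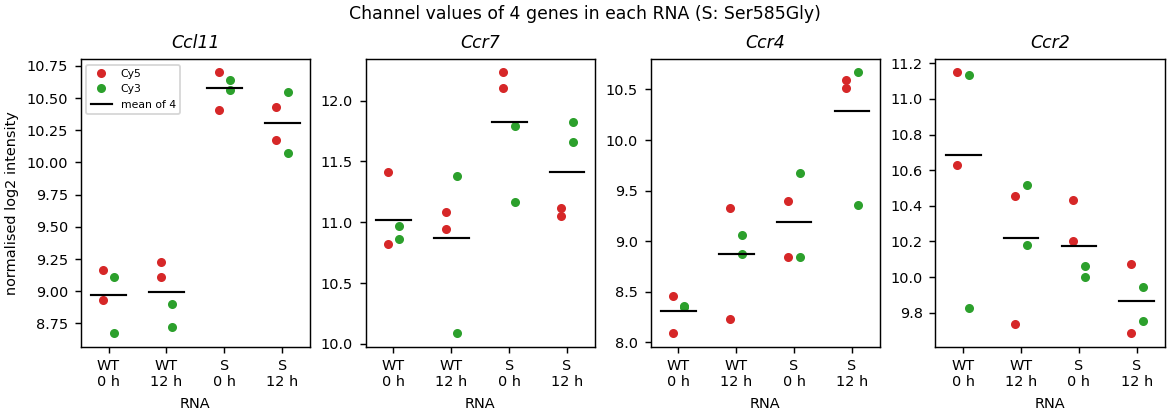
Normalised log2 intensity of Ccl11, Ccr7, Ccr4 and Ccr2 in each of the 4 RNAs; each point is 1 channel (red Cy5, green Cy3) and the line is the mean of 4 channels. The Ccl11 channels of Ser585Gly RNA all lie above 10 and those of wild-type RNA below 9.3, whereas the channels of Ccr2 overlap between the populations.

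Ccr2 is the receptor for Ccl2, Ccl7 and Ccl12 and serves the recruitment of monocytes and effector T cells. Its log2 ratios of Ser585Gly over wild type were −0.93 and −1.15 on the 0 h arrays and −0.84 and −0.70 on the 12 h arrays, negative on all 4. The fitted ratio was −0.98 ± 0.12 at 0 h (1.97-fold lower, adjusted p = 0.00603) and −0.83 ± 0.12 at 12 h (1.77-fold lower, adjusted p = 0.0132). Wild-type channels read 11.15, 10.63, 11.13 and 9.83 at 0 h and 10.45, 9.73, 10.52 and 10.18 at 12 h. Ser585Gly channels read 10.20, 10.44, 10.00 and 10.06 at 0 h and 9.68, 10.07, 9.76 and 9.94 at 12 h. The ranges overlapped across arrays. The 0 h ratio without the array that stood apart was −0.93 (adjusted p = 0.0351). The 0 h call ended without the other 0 h array (0.0715), and the 12 h call ended without replicate 1 at 12 h (0.176).

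The ligands of Ccr2 did not pass between the populations. Ccl2 had ratios of 0.01 ± 0.18 at 0 h and 0.09 ± 0.18 at 12 h, and Ccl12 had −0.18 ± 0.21 and −0.19 ± 0.21. Ccl7 had −0.52 ± 0.17 at 0 h (adjusted p = 0.124) from arrays that read −1.27 and 0.13, of which the first is the array that stood apart. Without it the 0 h ratios were −0.19 for Ccl7 (adjusted p = 0.522) and 0.39 for Ccl2 (0.131).

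Ccr1l1 is a receptor-like gene related to Ccr1. Its arrays read −1.07 and −0.65 at 0 h, and the fitted ratio was −0.86 ± 0.13 (1.82-fold lower in Ser585Gly, adjusted p = 0.0128). The call ended without either 0 h array (−0.72, adjusted p = 0.0654, without the one that stood apart, and 0.0569 without the other). At 12 h the arrays read −0.49 and −0.22 and the fit gave −0.35 ± 0.13 (adjusted p = 0.298). The probe lay at the 19.5 percentile of brightness, and 3 of 4 channels of Ser585Gly RNA at 12 h were above empty wells.

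Cxcr5, the receptor for Cxcl13, brings follicular T cells to B cell areas. Its log2 ratios of Ser585Gly over wild type were −0.37 and −0.21 on the 0 h arrays and −0.47 and −0.83 on the 12 h arrays. The fit gave −0.35 ± 0.11 at 0 h (adjusted p = 0.115) and −0.59 ± 0.11 at 12 h (1.51-fold lower, adjusted p = 0.0359). The 0 h value was −0.29 without the array that stood apart (adjusted p = 0.326). The 12 h call held in 8 of those 18 alternatives, and it ended without any of the arrays other than those of the 0 h pair, with adjusted p from 0.0657 to 0.422. Cxcl13 had ratios of 0.03 ± 0.10 at 0 h and 0.01 ± 0.10 at 12 h.

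The direct mutation ratios, the means of each pair's own arrays, come at 0 h and at 12 h from arrays that share no RNA. The fitted ratios and their calls come from a joint model of all arrays. Those at 0 h and 12 h are therefore not separate measurements. Over the 48 genes the mean direct ratios correlated at 0.68 between these times and 27 of 48 had the same sign, as a description of genes that share arrays and dyes. The largest direct ratios at both times were those of genes called from these arrays. They were Ccl11 (1.75 and 1.45), Ccr7 (1.11 and 0.85), Ccr4 (0.90 and 1.40) and Ccr2 (−1.04 and −0.77). The correlation was not computed without them or over all probes, so it does not show that the family as a whole repeats between times. Between the dye-swapped arrays of 1 pair the correlation over the 48 genes was 0.50 at 0 h and 0.75 at 12 h, beside 0.12 and 0.22 over all probes. The same called genes enter these values. For the time pairs it was 0.48 in wild type and 0.28 in Ser585Gly, beside 0.51 and 0.51 over all probes.

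**Figure D3:**
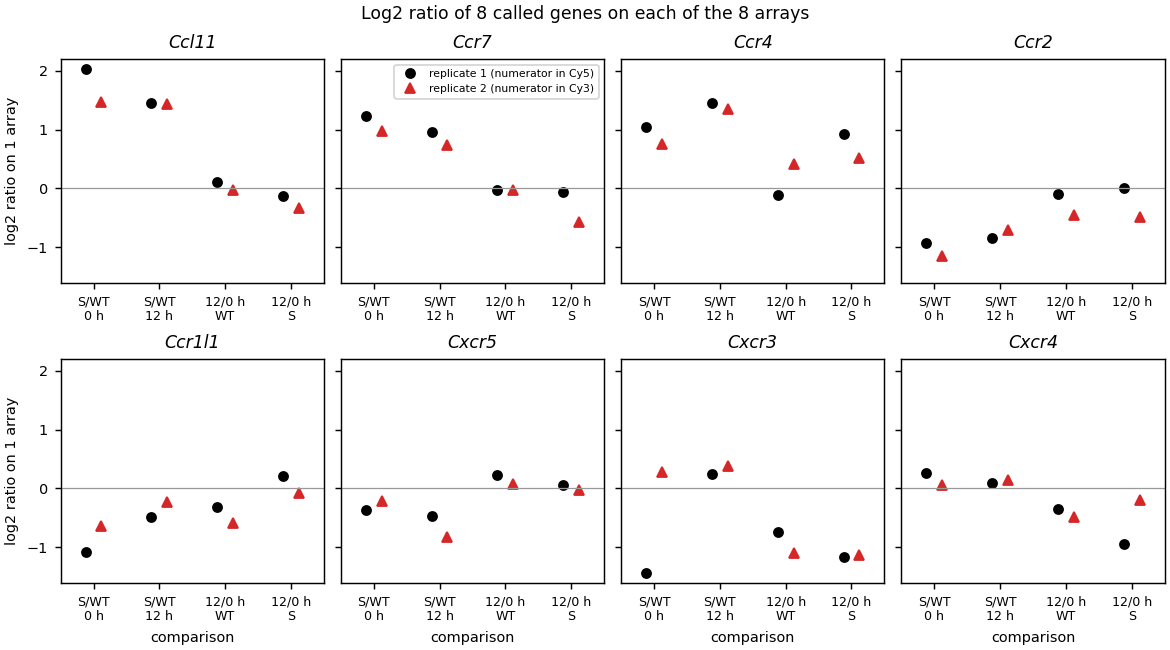
Log2 ratio on each of the 8 arrays for the 8 genes that passed in any comparison; circles are replicate 1 (numerator in Cy5) and triangles replicate 2 (numerator in Cy3), with S for Ser585Gly and WT for wild type. Ccl11, Ccr7 and Ccr4 lie above 0 and Ccr2 below 0 on all 4 arrays of Ser585Gly against wild type, and the Cxcr3 arrays at 0 h read −1.43 and 0.28.

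Few of these genes passed between 0 h and 12 h with GM-CSF in the fit of all 8 arrays. In wild-type cells 1 of 48 passed, 2.08% against 9.46% of all probes, and it was Cxcr3, which fell. In Ser585Gly cells 2 of 48 passed, 4.17% against 10.5% of all probes: Ccr4 rose, as above, and Cxcr4 fell. No ligand of the 33 passed in either population. The median log2 ratio of the 48 genes was −0.07 in wild type and −0.04 in Ser585Gly, beside −0.01 and 0.01 over all probes. The array that stood apart enters these values through the joint fit, and without it 4 genes passed in wild type (8.33% against 15.2% of all probes) and 6 in Ser585Gly (12.5% against 15.7%). Without it Cxcr3, Ccl2 and Ccl27a were lower at 12 h and Ccl1 was higher in wild type. In Ser585Gly, Cxcr3, Ccl2, Ccl27a, Cxcl12 and Cxcl16 were lower and Ccr4 was higher.

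**Figure D4:**
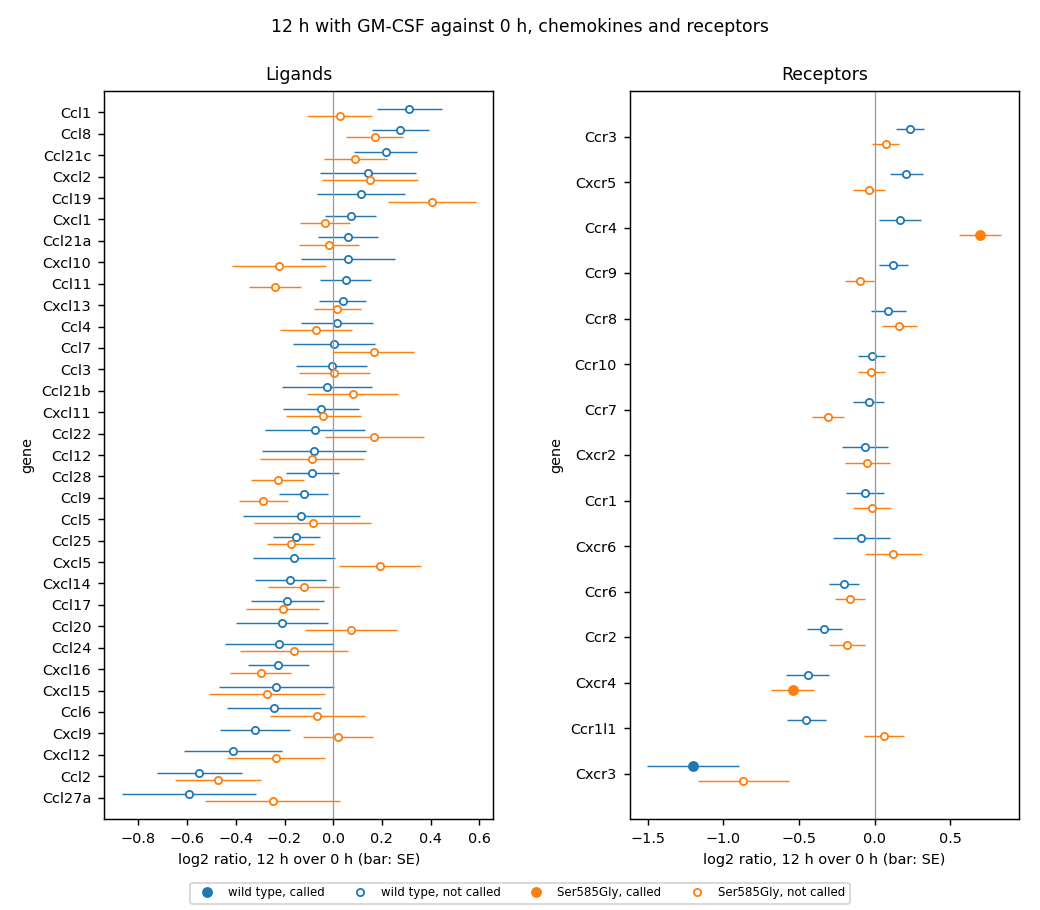
Log2 ratio of 12 h with GM-CSF over 0 h for 33 ligands (left) and 15 receptors (right), in wild-type cells in blue and Ser585Gly cells in orange. Points are limma estimates over 8 arrays, bars are SE and filled points passed an adjusted p under 0.05; Cxcr3 lies lowest among the receptors in both populations.

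Cxcr3, the receptor of the interferon-induced ligands Cxcl9, Cxcl10 and Cxcl11, marks type 1 effector T cells. Its log2 ratios of 12 h over 0 h were −0.75 and −1.10 in wild type and −1.16 and −1.13 in Ser585Gly, negative on all 4 arrays. The fit gave −1.20 ± 0.30 in wild type (2.30-fold lower, adjusted p = 0.0433) and −0.87 ± 0.30 in Ser585Gly (adjusted p = 0.118). The mutation arrays at 0 h, which enter the same fit, read −1.43 and 0.28. Without the first of these, the array that stood apart, the ratio was −0.96 in wild type (adjusted p = 0.00184) and −1.10 in Ser585Gly (0.00106). The wild-type call held in 10 of those 18 alternatives, and without its own replicate 2 the adjusted p was 0.265. None of the ligands passed: over time Cxcl9 had ratios of −0.32 in wild type and 0.02 in Ser585Gly, Cxcl10 had 0.06 and −0.22, and Cxcl11 had −0.05 and −0.04. Between the populations Cxcl11 had 0.42 ± 0.15 at both 0 h and 12 h (adjusted p = 0.165 and 0.290), with 0 h arrays of −0.10 and 0.92. These were 0.69 and 0.52 without the array that stood apart (adjusted p = 0.0600 and 0.0521).

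Cxcr4, the receptor for Cxcl12 that holds lymphocytes and progenitors in marrow, read −0.34 and −0.49 in wild type and −0.94 and −0.20 in Ser585Gly on the arrays of 12 h over 0 h. The fit gave −0.44 ± 0.14 (adjusted p = 0.0979) and −0.54 ± 0.14 (1.46-fold lower, adjusted p = 0.0489). The Ser585Gly call held in 6 of those 18 alternatives, and without its own replicate 1 the ratio was −0.28 (adjusted p = 0.448). Without the array that stood apart it was −0.51 (adjusted p = 0.0515). Cxcl12 had −0.41 ± 0.20 in wild type and −0.23 ± 0.20 in Ser585Gly (adjusted p = 0.265 and 0.557), and the latter became −0.38 (0.0479) without that array.

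Among the ligands, Ccl2, which attracts monocytes, read −0.45 and −0.38 in wild type and −0.75 and −0.47 in Ser585Gly on the arrays of 12 h over 0 h. All 4 were negative, yet the fit gave −0.55 ± 0.18 (adjusted p = 0.0928) and −0.47 ± 0.18 (0.138). Without the array that stood apart, where its mutation ratio was −0.71 against 0.47 on the swapped array, Ccl2 passed in both populations (−0.43, adjusted p = 0.0152, and −0.60, 0.00381). Ccl27a, a skin chemokine, had 0 h mutation arrays of −1.54 and 0.02 and time ratios of −0.59 in wild type (adjusted p = 0.239) and −0.25 in Ser585Gly (0.664). Without that array they were −0.38 (adjusted p = 0.0438) and −0.46 (0.0215). Ccl1, the ligand of Ccr8, had 0.31 ± 0.13 in wild type (adjusted p = 0.200), and 0.38 (0.0431) without that array. Its probe lay at the 9.27 percentile of brightness. Of its 4 channels of wild-type RNA, 2 were above empty wells at 0 h and 3 at 12 h, and of those of Ser585Gly RNA 0 were at 12 h. Cxcl16, the ligand of Cxcr6, had −0.30 ± 0.13 in Ser585Gly (adjusted p = 0.196), and −0.36 (0.0466) without that array.

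The remaining genes with an unadjusted p under 0.05 in a comparison did not pass after adjustment. Ccl9, a ligand of Ccr1, read −0.45 and −0.11 over time in Ser585Gly (fit −0.29 ± 0.10, adjusted p = 0.118) and 0.28 and 0.25 between the populations at 0 h (0.26 ± 0.10, adjusted p = 0.183), the latter being 0.20 (0.442) without the array that stood apart. Ccl8 had 0.28 ± 0.12 over time in wild type (adjusted p = 0.200), and Ccr3 had 0.23 ± 0.09 (0.163). Ccr7 had −0.31 ± 0.10 over time in Ser585Gly (adjusted p = 0.106), and Ccr2 and Ccr1l1 had −0.33 and −0.45 in wild type (0.129 and 0.0678). Cxcl9 had −0.33 ± 0.14 between the populations at 0 h (adjusted p = 0.221), with −0.86 on the array that stood apart and −0.12 on the other. Without the former it was −0.11 (adjusted p = 0.758).

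The 40 genes that passed in no comparison spanned −0.59 (Ccl27a) to 0.31 (Ccl1) over time in wild type and −0.47 (Ccl2) to 0.40 (Ccl19) in Ser585Gly. Between the populations they spanned −0.53 (Ccl19) to 0.42 (Cxcl11) at 0 h and −0.35 (Ccl7) to 0.42 (Cxcl11) at 12 h. They include the receptors Ccr1, Ccr6, Ccr8, Ccr9, Ccr10, Cxcr2 and Cxcr6. The inflammatory ligands Ccl3, Ccl4 and Ccl5, which activated T cells are known to secrete, are also among them. Ccl5 lay at the 9.84 percentile of brightness, with 2 of 4 channels above empty wells in each RNA at 12 h. Ccl3 had 2 of 4 in Ser585Gly RNA at 12 h, whereas Ccl4 had 4 of 4 in each RNA at 12 h. Signal this low limits what the lack of a call shows for Ccl5 and Ccl3.

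The response to GM-CSF was compared between the populations through the interaction of mutation and time. None of the 48 genes passed, beside 0.0551% of all probes (limma). An unadjusted p under 0.05 was found for 3 of 48, which is no larger a share than the 1527 of 21776 over all probes. The 3 genes were Ccr1l1 (0.51 ± 0.15, adjusted p = 0.545), Ccr4 (0.53 ± 0.16, 0.563) and Ccl11 (−0.29 ± 0.12, 0.707). The same count of 0 was found with every alternative setting run.

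The wider chemokine system and the signalling genes downstream were listed alongside. Of 20 other genes of the system, all measured, 0 rose and 2 fell over time in wild type, and 0 rose and 1 fell in Ser585Gly, 10% and 5% against 9.46% and 10.5% of all probes. Without the array that stood apart 1 rose and 2 fell in wild type, beside 15.2% of all probes. In Ser585Gly 0 rose and 2 fell without it, beside 15.7%. Between the populations 2 were higher at 0 h and 3 at 12 h, 10% and 15% against 4.07% and 1.72% of all probes, and none was lower. The one that passed at 0 h without the array that stood apart was Cd74. Cd74, the invariant chain and a receptor of the cytokine Mif, was higher in Ser585Gly by 1.41 ± 0.11 at 0 h (adjusted p = 0.000544) and 1.01 ± 0.11 at 12 h (0.00325), and by 1.52 at 0 h without that array (0.00236). Ackr3, a scavenging receptor for Cxcl12, fell by 0.67 over time in wild type (adjusted p = 0.00694) and was higher in Ser585Gly at 12 h by 0.72 (0.0143). Cmtm7, a chemokine-like factor family member, was lower over time by −0.56 and −0.55 and higher in Ser585Gly by 0.65 and 0.66 (adjusted p from 0.0158 to 0.0238), and its 0 h value was 0.49 without that array (0.0660).

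Of 46 listed genes of receptor signalling and migration, 37 were measured. Over time 3 rose and 2 fell in wild type, and 2 rose and 1 fell in Ser585Gly, 13.5% and 8.11% against 9.46% and 10.5% of all probes. Without the array that stood apart 4 rose and 2 fell in wild type, beside 15.2% of all probes. In Ser585Gly 3 rose and 3 fell without it, beside 15.7%. Between the populations 3 were higher and 0 lower at 0 h, and 2 were higher and 1 lower at 12 h, 8.11% at each time against 4.07% and 1.72%. The one that passed at 0 h without the array that stood apart was Dock8. Elmo1, a partner of Dock2 in the activation of Rac, was among the higher genes in all 4 comparisons (0.46 and 0.51 over time, 0.47 and 0.52 between the populations, adjusted p from 0.0169 to 0.0481), and its 0 h value was 0.35 without that array (0.161). Pik3cg, the PI3-kinase subunit driven by G protein-coupled receptors, rose by 0.81 in wild type (adjusted p = 0.0456) and 1.28 in Ser585Gly (0.00706). Itgb7, the integrin chain of gut-homing T cells, was higher in Ser585Gly by 0.67 at 0 h (adjusted p = 0.0151; 0.58 and 0.0651 without that array) and 0.76 at 12 h (0.0118). Dock8, a guanine nucleotide exchange factor for T cell migration read by the brighter of 2 probes, was higher at 0 h by 0.77 (adjusted p = 0.00736; 0.70 and 0.0379 without that array). The value of the other Dock8 probe is not given here. Dock2 rose over time by 0.53 in wild type (adjusted p = 0.0116), and Selplg, a selectin ligand of rolling leukocytes, fell by 0.58 (0.0293). No gene of either list passed the interaction test.

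Markers of T cells and of other cells were measured beside these differences. Of the 16 T cell markers, 1 (6.25%) passed between the populations at 0 h and 2 (12.5%) at 12 h. Over all probes the shares were 4.07% and 1.72%. Ptprc, the leukocyte antigen CD45, was lower in Ser585Gly by −1.59 at 0 h and −1.73 at 12 h (adjusted p = 0.000544 and 0.000549), and by −1.60 at 0 h without the array that stood apart (0.00581). Prf1, the pore protein of cytotoxic cells, was lower at 12 h by −0.95 (adjusted p = 0.0121). Over time 4 T cell markers (25%) passed in wild type and 3 (18.8%) in Ser585Gly, beside 9.46% and 10.5% of all probes. Cd3e fell by 0.84 in wild type and 0.90 in Ser585Gly, Cd3g fell by 0.71 and 0.72, and Lat rose by 0.49 in each, while Prf1 rose by 0.55 in wild type. Without the array that stood apart 3 T cell markers rose and 3 fell in wild type, beside 15.2% of all probes. In Ser585Gly 2 rose and 3 fell without it, beside 15.7%. Of 16 myeloid markers, 2 (12.5%) passed between the populations at each time, beside 4.07% and 1.72% of all probes. Cd68 was higher (0.51 and 0.60) and Ctsg was lower (−2.07 and −2.34) in Ser585Gly at 0 h and 12 h. Without the array that stood apart the 0 h values were 0.52 (adjusted p = 0.139) and −1.79 (0.00381). Over time 2 myeloid markers (12.5%) passed in wild type, beside 9.46% of all probes: Ctsg rose by 0.70 and Csf3r by 0.57. In Ser585Gly 0 passed, beside 10.5%. Without the array that stood apart 2 myeloid markers rose in wild type and 1 fell in Ser585Gly, beside 15.2% and 15.7% of all probes. The summed intensity of the myeloid list ran from 11918 to 17613 in wild type and 8727 to 11848 in Ser585Gly at 0 h, and from 12251 to 20031 and 9228 to 12519 at 12 h. These ranges did not overlap at 0 h and overlapped at 12 h. Without Ctsg they overlapped at both times, 8727 to 16208 and 8227 to 11342 at 0 h and 8368 to 17769 and 8480 to 11401 at 12 h. The B cell, mast cell and fibroblast lists, with 8, 7 and 7 genes measured, had 0 genes that passed in any comparison. Lists this short can hold 0 at the shares over all probes. The part of these markers in the differences of Ccr2, Ccl11 and the other genes was not tested.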

How the data were processed

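The scanner files held foreground and background intensity per dye for 23040 spots, per the file headers, and the scanner and image software are not given in the labels. The deposited table holds log2 ratios (Cy5 over Cy3), and the submitters' processing notes name limma. Its scaling and centring are unknown here, and it served to place probes and as an alternative.

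Table rows were matched to spots by their 8 ratios, and names then followed a recovered print order. Of 1012 coded controls 94.1% were nearest to their coded spot. Of 21782 placed probes 90.3% were nearest to their spot in the deposited order, as were 45 of the 48 chemokine and receptor probes. These shares describe the matching of rows to spots and do not check the recovered order. Of the placed probes 6 shared a spot and were left out, and another 15 were unplaced. The brightness percentile of the 244 wells named empty had a median of 0.129 in the recovered and 46.8 in the deposited order. Symbols came from gene identifiers (15970 probes), accessions (6) or the platform annotation (666), whereas 137 probes had several symbols and 4997 had none.

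Background was corrected by normexp (offset 50) and arrays by loess (span 0.3, control spots at weight 0). A single limma model (limma 3.58.1, R 4.3.3) held all 8 arrays with terms for dye, mutation, time and their interaction, with 4 residual degrees of freedom (4.35 in the prior). Two-sided tests were used, with Benjamini-Hochberg adjustment over 21776 probes. Channel levels were scaled between arrays by Aquantile. In simulated data of the wild-type time comparison over 21776 probes, 98.2% of 113 probes changed by 1 log2 unit and 100% of 87 changed by 2 were recovered, with 13 false calls. The simulated noise was independent between arrays, with no dye effect and no array that stood apart. These shares therefore check the code and do not give the sensitivity of the real arrays.

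The members and lists were chosen with earlier results of these data known. Genes were named if they passed in any comparison or had an unadjusted p under 0.05, with their partners, and up to 6 genes per list by adjusted p. Markers that passed, genes that passed only without 1 array, and chromosome neighbours were named after their values were seen. Alternatives were other background corrections, normalisations and centring, the deposited table, other treatments of the dye swaps and the prior, the deposited order of names and leaving out each array.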

Additional observations from a re-analysis of the deposited data

How the results depend on the processing

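Counts here are of the 48 genes that passed, each followed by the share of all probes that passed in the same fit. For 12 h against 0 h in wild type (1, 9.46%), no background correction gave 0 (8.59%), direct arrays only 0 (4.06%), print-tip loess 4 (18.7%), the dye-swap pair as a random block 5 (19.2%) and the deposited values 6 (19.3%). For 12 h against 0 h in Ser585Gly (2, 10.5%), direct arrays only gave 0 (5.27%), no background correction 1 (10.1%), median centring 1 (8.28%), no dye term 1 (7.71%), a trended prior 1 (10.4%), the random block 6 (19.8%), the deposited values 6 (19.5%) and print-tip loess 8 (19.7%). For Ser585Gly against wild type at 0 h (5, 4.07%), direct arrays only gave 3 (1.04%), the deposited values 8 (11.8%) and the random block 9 (15.5%). At 12 h (5, 1.72%), dye-swap pairs averaged gave 3 (0.716%), direct arrays only 3 (0.73%) and the deposited values 10 (10.2%). With names in the deposited order, in the same fit, the counts were 3, 6, 0 and 1 in that order. Leaving out 1 array at a time gave 0 to 4 (1.89% to 15.2% of all probes), 0 to 6 (1.24% to 15.7% of all probes), 2 to 5 (0.505% to 2.93% of all probes) and 1 to 5 (0.312% to 2.88% of all probes). The interaction count was 0 in all of these, and no called value changed sign in the alternatives that keep the recovered order. The random block had a correlation of −0.326 between the arrays of a pair, which narrows the estimated spread. Of 204 member values with an unadjusted p of at least 0.05, 10 passed in any alternative that keeps the recovered order, in 12 of 3672 refits. The cause of these shifts was not tested. With direct arrays only, all arrays stay in the fit but each comparison rests on the arrays that hold it directly. Averaged pairs leave fewer values in the fit. All gene names depend on the recovered print order.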
